A study of Homo sapiens with 6 samples.

Results

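The genes described here encode the proteins of the mitochondrial ribosome that carry MRPL or MRPS symbols. They were taken by name, as protein-coding rows of the count table whose symbol is MRPL or MRPS followed by a number and at most 1 letter, which gave 78 of 58735 genes, 49 with MRPL and 29 with MRPS symbols, on 21 chromosomes. RNA came from Het1A, a single human line that descends from normal oesophageal epithelial cells carrying SV40 large T antigen. In 3 bile acid libraries the cells had been exposed for 10 min a day on 5 days to a bile acid mix (100 µM, pH 4.0) of deoxycholic acid and the conjugates glycocholic, glycodeoxycholic, glycochenodeoxycholic and taurocholic acid. In 3 control libraries they had received the solvent alone, 0.1% DMSO, and the labels do not say that this medium was acidified, so acid and bile acids cannot be told apart. All 6 cultures had been kept at 1% serum since 48 h ahead of the exposures, in a medium with epidermal growth factor and pituitary extract, and were harvested 24 h after the final one. The libraries are labelled biological replicates 1 to 3 without saying how the cultures were separated, so the p-values measure the spread between these libraries, which may be technical. In bulk RNA, fewer cells and less RNA per cell cannot be told apart.

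The mitochondrial ribosome, or mitoribosome, translates the few messenger RNAs encoded by mitochondrial DNA, all of which make subunits of the respiratory chain and ATP synthase. Its 2 ribosomal RNAs come from mitochondrial DNA, while all of its proteins are encoded in the nucleus, made in the cytosol and imported. Part of them have counterparts in bacterial ribosomes, and the others are found in mitochondria alone. The symbols do not always give the place of the protein: MRPS30 and MRPS18A sit in the large subunit, and MRPS36 is now known as a subunit of the 2-oxoglutarate dehydrogenase complex. By place, 51 of the 78 genes encode large subunit proteins, 26 encode small subunit proteins and 1 is MRPS36.

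Markers of the labelled cell type were present in part. The simple-epithelial keratin KRT8 stood at 325 to 654 CPM (counts scaled to library size, the unit used for libraries below) and the epithelial adhesion protein EPCAM at 37.9 to 74.7 CPM, whereas the basal squamous markers KRT5, KRT14 and TP63 lay between 0 and 0.51 CPM and the squamous keratins KRT4 and KRT13 at 0. The leukocyte markers PTPRC, CD3E and LYZ had 0 counts in all libraries and CD14 stood at 9.16 to 16.1 CPM. The other epithelial markers KRT18, KRT19 and CDH1 stood at 193 to 658, 52.7 to 148 and 6.50 to 21.0 CPM. Of the 6 mesenchymal markers, VIM, COL1A1 and PDGFRB stood at 102 to 213, 42.7 to 231 and 9.13 to 23.5 CPM, and COL1A2, DCN and LUM at no more than 0.464 CPM. Total counts per library ran from 21006677 to 28497721. Control 2 stood apart from the other libraries, with 19101 genes with at least 1 count against 24174 to 25337, so each comparison is given with and without it.

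Nearly all genes of the family were expressed at moderate levels. Over the 77 genes that passed the filter on low counts, the mean FPKM (counts scaled by gene length and library depth) had a median of 20.4, against 3.26 over all 17743 genes tested, and 67 of the 77 stood above 5 FPKM in every library. The highest level was that of MRPS34, a small subunit protein needed for a stable small ribosomal RNA, at 96.3 FPKM, followed by the large subunit proteins MRPL18 at 81.5 and MRPL37 at 72.9 FPKM. The lowest tested gene, MRPL38, stood at 0.733 FPKM, which puts the highest level 131 times above the lowest. The median level was 22.9 FPKM over the 51 large subunit genes and 17.5 over the 25 tested small subunit genes, a small step beside the range within each.

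**Figure D1:**
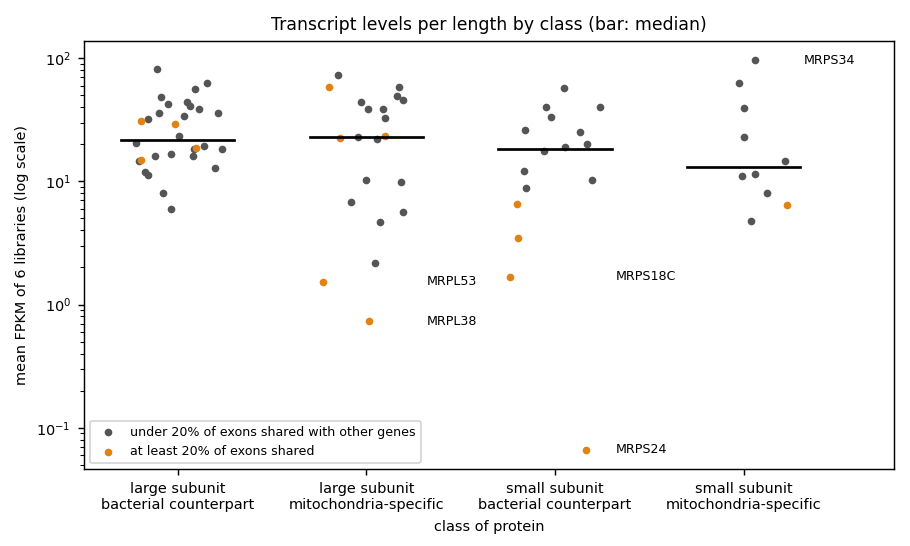
Mean FPKM over the 6 libraries on a log axis for each of 77 genes, by subunit and by whether the protein has a bacterial counterpart (bars are class medians, MRPS36 is not shown). MRPS34 lies at the top at 96.3 FPKM, and MRPS24, MRPL38, MRPL53 and MRPS18C, which share at least 20% of their exonic length with other genes (orange), lie at the bottom.

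The 4 lowest levels belonged to genes that share exons with neighbours. For 13 of the 77 tested genes, at least 20% of the exonic length is covered by exons of another gene (GENCODE release 29, either strand), a share of 16.9% against 11.7% of all genes tested. Their median level was 15.0 FPKM, against 22.5 FPKM in the other 64. MRPL53 shares 45.2% of its exonic length with CCDC142 on the same strand, MRPL38 37.5% with a neighbouring gene on the same strand, and MRPS18C 40.2% with ABRAXAS1 on the other strand, and these 3 stood at 1.54, 0.733 and 1.68 FPKM. MRPS24, a small subunit protein (chromosome 7, 43866558 to 43869893, minus strand, GRCh38), was the 1 gene that did not pass the filter, with 3, 0 and 4 counts in controls 1 to 3 and 8, 10 and 8 counts in bile acid libraries 1 to 3. It shares 23.2% of its exons with the read-through gene URGCP-MRPS24, which itself had 3 counts over all libraries. The floor of 3 counts used here, which covers counting error alone, corresponds to 0.104 to 0.168 CPM; the controls lay at 0 to 4 counts, around that floor, and no fold is given. The sources used here do not say whether counting was done by strand, so these genes are uncertain, and the part of shared exons in their low levels was not tested. A second source of doubt are processed copies: 75 pseudogenes named after 34 of the genes are in the table, of which 61 had 0 counts in every library. The counts of the copies reached 10.3% of those of the parent for MRPS31 and 5.89% for MRPL45, and 1.23% for MRPS17.

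No gene of the family was called in the comparison of bile acid with control libraries, while 68 of the 77 had a lower value in the bile acid libraries, as did 51.2% of all genes tested. Their log2 fold changes had a median of −0.37, against −0.01 over all genes. With the quasi-likelihood test of edgeR 0 of the 77 passed an adjusted p of 0.05, as did 0.0% of all genes, and the lowest adjusted p in the family was 0.911. At an unadjusted p under 0.05 the family had 0 genes with edgeR and 0 with limma-voom, against 3.31% and 2.98% of all genes tested. With DESeq2 it had 2, MRPL54 and MRPL27, against 851 of all genes fitted. That is 4.99% when set over the 17048 genes with an adjusted p, a smaller set than the one counted. DESeq2 called 0.111% of its genes and none of the 77, with a lowest adjusted p of 0.919 among them. Large and small subunit genes had nearly the same median, −0.37 over 51 genes, of which 45 were lower, and −0.37 over 25 genes, of which 22 were lower.

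The lower values came with 1 library. Relative to each gene's mean over the 6 libraries, the median of the family was −0.18 in control 1, 0.81 in control 2 and −0.18 in control 3, and −0.26, 0.02 and −0.21 in bile acid libraries 1 to 3. Control 2 is therefore the single high library, and the bile acid libraries lie around the other controls. In 68 of the 77 genes control 2 was above all 5 other libraries, which held for 36.4% of all genes tested, and in 2, MRPL3 and MRPL49, it was below all of them, which held for 41.8%. The fold of control 2 over the mean of controls 1 and 3 had a median of 1.99 in the family and reached 4.50, in MRPS6. Folds and log2 differences use the scaled totals described below, 17858083 for control 2 against 21006677 counts. For controls 1 and 3 these were 27823664 against 26218597 and 23468949 against 21981806. This scaling raises control 2 relative to controls 1 and 3. Over all genes tested the log2 difference of control 2 from controls 1 and 3 had a median of −0.08 and an SD of 1.32, against 0.99 and 0.63 in the family. Among all tested genes up to 3142 bp its 75th percentile was 1.17. The share of all counts taken by the 77 genes was 0.823% in control 2 and 0.431% to 0.521% in the other libraries.

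**Figure D2:**
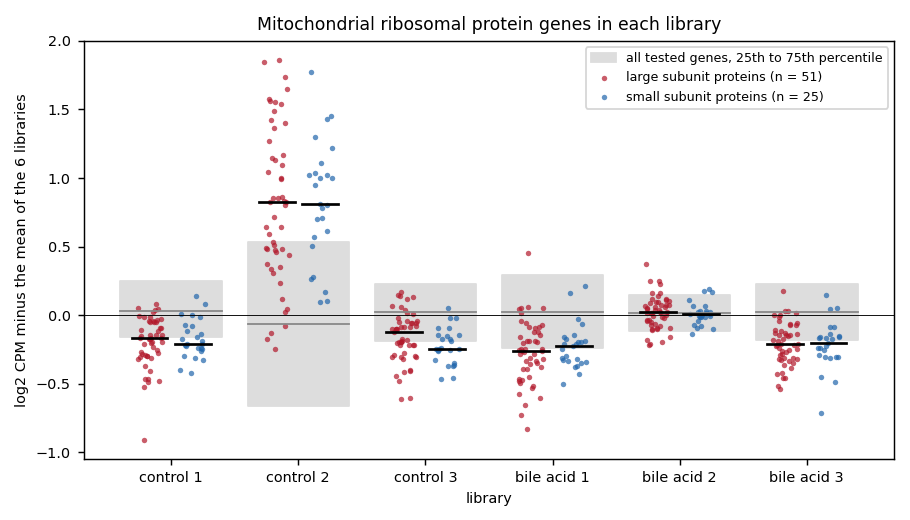
Log2 CPM minus the gene's mean over the 6 libraries (vertical axis) for 51 large subunit and 25 small subunit genes (points) in each library (horizontal axis), with medians as black bars and the 25th to 75th percentile of all 17743 tested genes in grey. The family sits near 0.81 in control 2 and between −0.26 and 0.02 in the other 5 libraries.

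Without control 2 the values of the family centred close to 0. The median log2 fold change was 0.05, against 0.00 over 18274 genes tested, with 47 genes higher, against 50.8% of all genes, and 30 lower, against 49.2%. None of the 77 passed with edgeR, which called 0.00547% of all genes, and the lowest adjusted p of the family was 0.573. DESeq2 called 0.979% of its genes and again 0 of the 77, with a lowest adjusted p of 0.464. At an unadjusted p under 0.05 the family had 1 gene, MRPL14, with each of edgeR, DESeq2 and limma-voom. Of all genes tested 7.98% did so with edgeR and 7.63% with limma-voom. With DESeq2 1424 of all genes fitted did so. That is 8.82% when set over the 16146 genes with an adjusted p, a smaller set than the one counted. The fold changes were also narrower: their SD over the 77 genes was 0.16, against 0.44 over all genes, and 70 of the 77 lay within 0.25 of 0. Of the 68 genes below 0 in the full comparison, 40 lay above 0 without control 2. This follows in part from picking the 68 by their sign with control 2 included, and no share over all genes is given.

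**Figure D3:**
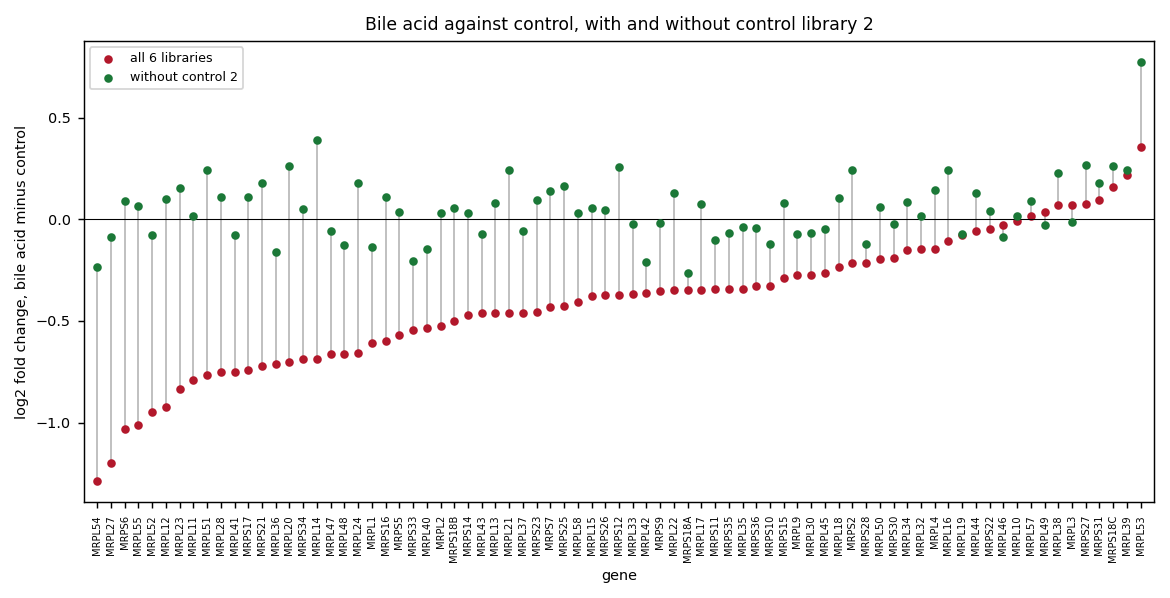
Log2 fold change of bile acid against control (vertical axis) for the 77 tested genes, ordered by their value with all 6 libraries (red), with the value without control 2 in green. With all libraries 68 genes lie below 0, from −1.29 for MRPL54, and without control 2 they lie from −0.27 for MRPS18A to 0.78 for MRPL53, with 47 above 0.

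The spread between the bile acid libraries was wider than the difference between the groups without control 2. Set against the mean of controls 1 and 3, the family had a median of −0.11 in bile acid library 1, where 24 of 77 genes were higher, of 0.20 in library 2, where 68 were higher, and of −0.01 in library 3, where 36 were higher. Of all 17743 genes tested 8683, 8871 and 8735 were higher in bile acid libraries 1 to 3. The same difference of the family was 0.99 in control 2, where 73 of its genes were higher, as were 8367 of all genes tested. Without bile acid library 2 as well as control 2, the median was −0.03 and 51 genes were lower, so the sign of the family median rests on that library too.

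The genes of the family are short, and control 2 favoured short genes. Their median exonic length was 2539 bp, against 4414 bp over all genes tested. The difference of control 2 from controls 1 and 3 was lower in longer genes. Spearman rho was −0.33 over all 17743 genes, −0.43 over the protein-coding ones and −0.22 over the 77 of the family. Pearson correlations with log2 length were −0.20, −0.36 and −0.25 in the same order. Genes are not independent replicates, and all points share the same 3 libraries. Among genes up to 3142 bp the median difference was 1.02 for 53 of the family and 0.48 for 5914 genes in all, and from there to 5985 bp it was 0.79 for 18 of the family and −0.02 for all. The 6 longest members, too few for a stable median, stood at 0.46, against −0.52 over all genes above 5985 bp. In each of the 3 length ranges the family lay above the genes at large in control 2. The genes at large were matched to the family in neither type nor level. Of the 17743 genes 14336 code for protein, as does the whole family. With the length trend of each library removed the family median was −0.28 in place of −0.37, with 64 genes lower and 0 called. Across all genes, rho was −0.32 in bile acid library 2, the sign found in control 2, and 0.12 and −0.02 in libraries 1 and 3.

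**Figure D4:**
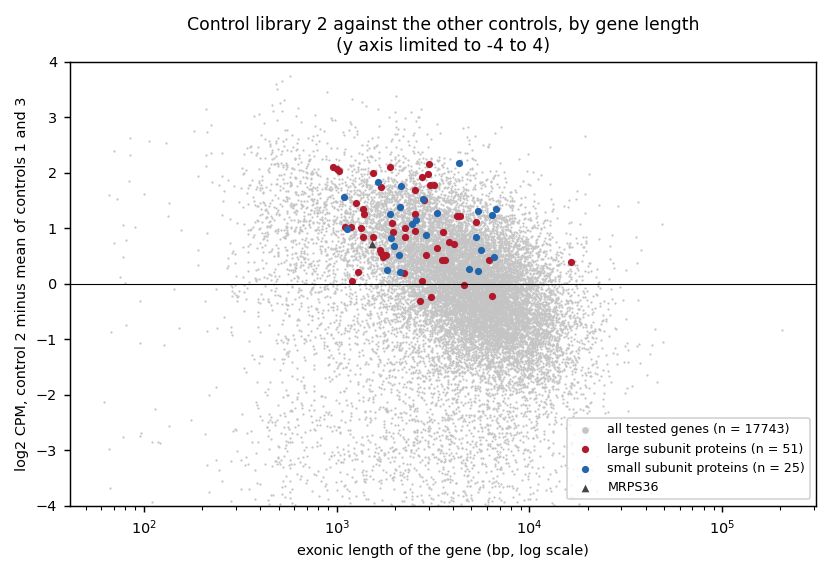
Difference of log2 CPM between control 2 and the mean of controls 1 and 3 (vertical axis, limited to −4 to 4) against exonic length (log axis) for all 17743 tested genes in grey, large subunit genes in red, small subunit genes in blue and MRPS36 as a triangle. The family lies at short lengths and mostly above 0, with a median of 0.99, where the median of all genes is −0.08.

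The authors' deposited gene set table also holds genes of the family. In that table the term mitochondrial translation, with 130 genes, had a normalized enrichment score of −2.47 (authors' gene set test, adjusted p = 5.12e-09). It was the second lowest score of 82 terms with a score below 0. This p-value takes genes that vary together as its units, so it does not measure the spread between libraries. The authors' normalized counts include control 2. Of the 66 genes that the authors' deposited table lists as the core of the term, 51 belong to the family. In the fit without control 2, 28 of these 51 had a higher value and 23 a lower value in the bile acid libraries. Of all genes 50.8% were higher and 49.2% lower in that fit. The core was picked for low values in the authors' ranking, which shares libraries with this fit, so the split is no independent check. The lowest score of the authors' terms, −2.76, was that of mitochondrial respiratory chain complex assembly, with 0 genes of the family in its core. The authors' deposited table of single genes gives 67 of the 78 genes a log2 fold change below 0, with a median of −0.35 against 0.02 over its 22164 genes, and the lowest adjusted p among the 78 is 0.969.

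The genes with the lowest log2 fold changes showed the same pattern. MRPL54, a mitochondria-specific large subunit protein (chromosome 19, 3762664 to 3768575, plus strand), measured 42.3, 167 and 37.2 CPM in controls 1 to 3 and 25.8, 43.5 and 31.5 CPM in bile acid libraries 1 to 3. Its log2 fold change was −1.29 (SE 0.58, edgeR adjusted p = 0.911) and −0.23 (SE 0.21, adjusted p = 0.853) without control 2. The groups overlapped, since bile acid library 2 lay above controls 1 and 3. MRPL27 (chromosome 17, 50367857 to 50373214, minus strand), whose bacterial counterpart reaches towards the peptidyl transferase centre, measured 42.3, 187 and 42.0 CPM in controls and 33.0, 44.8 and 40.3 CPM in bile acid libraries. Its log2 fold change went from −1.20 (SE 0.59) to −0.09 (SE 0.16) without control 2. MRPS6, a small subunit protein, measured 37.3, 171 and 38.5 CPM against 38.4, 46.5 and 35.5 CPM, and its log2 fold change went from −1.03 to 0.09. In MRPL55 and MRPL52, both of the large subunit, control 2 stood at 217 and 208 CPM, while the other 5 libraries lay between 42.9 and 68.0 CPM and between 51.5 and 66.6 CPM. Their log2 fold changes of −1.01 and −0.95 were 0.07 and −0.08 without control 2. In all 5 of these genes control 2 was the single high library. This follows in part from their choice by the lowest values with control 2 included.

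Few genes separated the groups. In 4 genes, MRPL40, MRPL42, MRPS10 and MRPS18A, every bile acid library lay below every control, which held for 4.89% of all genes tested. In 1 of the 77 tested genes, MRPL39, all bile acid libraries stood above all controls, against 5.29% of all genes tested. The first count is near that share of 77 genes, and the second is below it. The untested MRPS24 also had higher counts in all bile acid libraries, with its controls around the floor, as given above. MRPS18A, which sits in the large subunit (chromosome 6, 43671303 to 43687791, minus strand), measured 35.5, 42.6 and 38.6 CPM in controls and 28.2, 34.2 and 29.4 CPM in bile acid libraries. Its control 2 value was close to those of the other controls, and its log2 fold change was −0.35 (SE 0.18, edgeR adjusted p = 0.911), or −0.27 (SE 0.16, adjusted p = 0.741) without control 2. It shares 47.0% of its exonic length with RSPH9 on the other strand, a gene with 154 counts over all libraries against 5226 for MRPS18A. MRPL42, a mitochondria-specific large subunit protein (chromosome 12, 93467488 to 93516213, plus strand), measured 90.3, 121 and 93.0 CPM against 69.4, 87.3 and 79.8 CPM, with a log2 fold change of −0.36 (SE 0.20) and of −0.21 (SE 0.14) without control 2. MRPL39, also of the large subunit (chromosome 21, 25585656 to 25607517, minus strand), measured 57.3, 60.4 and 60.0 CPM against 65.8, 68.9 and 72.0 CPM, a log2 fold change of 0.22 (SE 0.16, adjusted p = 0.911) and of 0.24 (SE 0.13, adjusted p = 0.703) without control 2. MRPL39 was among the 9 tested genes in which control 2 did not exceed all other libraries, with MRPL3, MRPL10, MRPL19, MRPL46, MRPL49, MRPL57, MRPS18C and MRPS31. None of the 5 tested genes that separated the groups passed in edgeR or DESeq2. The highest values after MRPL53 and MRPL39 in the full comparison were those of the small subunit genes MRPS18C, MRPS31 and MRPS27, at 0.16, 0.10 and 0.08. MRPS31 measured 18.2, 21.3 and 18.7 CPM in controls and 22.4, 19.0 and 20.8 CPM in bile acid libraries, and it is the gene with the largest share of counts in its copies.

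Without control 2, 4 of the 77 tested genes lay below both remaining controls in all bile acid libraries, against 12.9% of all genes, and 10 lay above, against 12.0%. The 4 are those named above, which had to recur because they lay below every control. The highest values were those of MRPL53 (0.78, SE 0.36), MRPL14 (0.39, SE 0.16), MRPS27 (0.27, SE 0.13), MRPS18C (0.26, SE 0.22) and MRPL20 (0.26, SE 0.17). MRPL14, a large subunit protein at the interface between the subunits (chromosome 6, 44113454 to 44127457, minus strand), measured 30.7 and 27.7 CPM in controls 1 and 3, 125 CPM in control 2, and 33.9, 41.5 and 38.7 CPM in the bile acid libraries. Its adjusted p of 0.573 is the lowest of the family, and its value with control 2 had the other sign, −0.69 (SE 0.56). MRPL53 stood at 1.19, 3.19 and 2.00 CPM in controls and 3.17, 2.74 and 2.19 CPM in bile acid libraries, a low level with shared exons, as given above. MRPS27, a small subunit protein with RNA-binding repeats, measured 94.4, 134 and 96.8 CPM against 108, 112 and 122 CPM. The lowest values besides MRPS18A, MRPL54 and MRPL42 were those of MRPS33 at −0.20 (SE 0.17) and MRPL36 at −0.16 (SE 0.19). None of these values passed over all genes (edgeR, adjusted p from 0.573 to 0.892).

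Proteins with known roles in the ribosome were looked at by group. MRPL12, MRPL10 and MRPL11 build the stalk that recruits translation factors, and MRPL12 also binds the mitochondrial RNA polymerase. In controls 1 to 3 MRPL12 measured 26.0, 91.6 and 19.1 CPM and in bile acid libraries 20.2, 27.3 and 24.5 CPM, so that control 2 alone was high. MRPL11 showed the same, with 437 CPM in control 2 and 126 to 154 CPM elsewhere, whereas MRPL10 lay between 100.5 and 129 CPM in all 6 libraries with no high control. The log2 fold changes of the 3 were −0.92, −0.79 and −0.01 for MRPL12, MRPL11 and MRPL10, and 0.10, 0.02 and 0.02 without control 2. MRPL45, which helps to hold the ribosome at the inner membrane, had a mean of 70.2 ± 8.78 CPM in the bile acid group and 84.3 ± 19.6 CPM in controls (SD, n = 3). MRPL58, a peptidyl-tRNA hydrolase that frees stalled ribosomes, measured 36.2 ± 5.48 against 48.0 ± 21.4 CPM, and MRPL44, a large subunit protein with a ribonuclease III fold, 45.8 ± 3.84 against 47.6 ± 9.89 CPM. These differences were smaller than the spread of the controls.

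Among small subunit genes, MRPS12, part of the decoding centre, had a mean of 43.8 ± 8.06 CPM in the bile acid group and 56.7 ± 34.3 CPM in controls (SD, n = 3). MRPS16 and MRPS22, whose mutations cause respiratory chain deficiency, measured 147 ± 18.3 against 223 ± 148 CPM and 67.6 ± 6.14 against 69.8 ± 7.97 CPM. Control 2 stood at 394 CPM for MRPS16 and at 77.1 CPM for MRPS22, a 2.87-fold and a 1.16-fold excess over the mean of controls 1 and 3. The paralogues MRPS18A, MRPS18B and MRPS18C descend from 1 bacterial protein and occupy different sites, the first in the large and the others in the small subunit. MRPS18B measured 114 ± 15.4 against 162 ± 88.4 CPM and MRPS18C 10.0 ± 1.42 against 8.99 ± 1.11 CPM. Without control 2 their log2 fold changes were −0.27, 0.05 and 0.26 for A, B and C, of which none passed (edgeR, adjusted p from 0.741 to 0.959). MRPS30 and MRPS36, whose symbols do not match their places, had values of −0.02 and −0.04 without control 2.

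Proteins with bacterial counterparts and those specific to mitochondria had similar medians. With all 6 libraries the median value was −0.42 (log2 fold change) over 30 large subunit genes with a bacterial counterpart, of which 29 were lower, and −0.35 over 21 specific ones, of which 16 were lower. MRPS18A was counted among these 21, although it shares its bacterial origin with MRPS18B and MRPS18C. In the small subunit the medians were −0.37 over 15 and −0.40 over 10 genes. Without control 2 the 4 medians were 0.06, −0.05, 0.09 and 0.05 in the same order. The difference of control 2 from controls 1 and 3 had a median of 1.10 and 0.64 in the 2 large subunit classes and of 1.15 and 0.91 in the 2 small subunit classes.

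Promoter sequence was not used in the choice by name, and a part of the promoters held letters known to bind ETS factors or YY1. Promoter sequences of 250 bases before and 50 after the start were taken from RefSeq (GRCh38.p14) and matched 69 of the 78 genes by symbol; MRPL2, MRPL10, MRPL13, MRPL15, MRPL21, MRPL23, MRPL35, MRPS28 and MRPS36 had no entry. The letters CCGGAAG, the core bound by ETS factors such as GABPA, an activator of nuclear genes for mitochondria, were found on either strand in 28 of 69 promoters. That is 40.6%, against 17.7% of 11254 promoters of protein-coding genes tested here and 10.6% of all 27305 promoters. Of the 38 matches 32 began within 100 bases of the start. The letters AAGATGGCG, bound by YY1, were found in 13 promoters or 18.8%, against 3.51% and 1.81%, and 10 of their 14 matches lay after the start. The NRF1 palindrome was found in 6 promoters or 8.70%, against 10.4% and 6.05%. The other letters searched were GGGCGG of SP1, in 58.0% against 68.7% of the protein-coding promoters, CCAAT, in 31.9% against 35.4%, CACGTG, in 13.0% against 9.47%, and TATAAA, in 2.90% against 5.82%. Both strands were read, CCGGAAG ends and AAGATGGCG begins with the same 3 letters so that matches to them can overlap, and a match is a description of the letters alone.

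The following 5 promoters, 300 bases each, are shown because they belong to the genes with the lowest value (MRPL54, chr19:3762432-3762731, plus strand), the next lowest (MRPL27, chr17:50373135-50373434, minus strand), the highest level (MRPS34, chr16:1773085-1773384, minus strand) and to 2 of the 4 genes lower in every bile acid library (MRPS18A, chr6:43687742-43688041, minus strand, and MRPL42, chr12:93467264-93467563, plus strand). They are written 5′ to 3′ along the gene, and capitals mark CCGGAAG or AAGATGGCG on either strand.
MRPL54: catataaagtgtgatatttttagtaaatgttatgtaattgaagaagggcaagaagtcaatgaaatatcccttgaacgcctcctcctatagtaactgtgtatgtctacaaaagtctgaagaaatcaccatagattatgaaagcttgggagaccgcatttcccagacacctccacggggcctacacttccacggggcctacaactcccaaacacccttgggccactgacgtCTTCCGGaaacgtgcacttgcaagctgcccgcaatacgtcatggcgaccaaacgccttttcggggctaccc
MRPL27: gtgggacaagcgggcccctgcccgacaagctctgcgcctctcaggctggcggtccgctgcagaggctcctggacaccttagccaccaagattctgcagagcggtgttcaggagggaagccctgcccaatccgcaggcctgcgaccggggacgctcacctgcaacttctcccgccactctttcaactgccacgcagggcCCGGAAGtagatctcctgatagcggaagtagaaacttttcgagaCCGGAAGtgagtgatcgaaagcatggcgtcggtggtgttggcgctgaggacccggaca
MRPS34: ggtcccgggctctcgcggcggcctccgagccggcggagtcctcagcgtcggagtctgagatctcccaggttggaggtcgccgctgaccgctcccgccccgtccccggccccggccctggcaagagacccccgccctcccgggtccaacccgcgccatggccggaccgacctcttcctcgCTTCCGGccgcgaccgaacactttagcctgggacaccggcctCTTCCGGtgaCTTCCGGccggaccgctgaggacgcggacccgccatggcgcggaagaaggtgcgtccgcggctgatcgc
MRPS18A: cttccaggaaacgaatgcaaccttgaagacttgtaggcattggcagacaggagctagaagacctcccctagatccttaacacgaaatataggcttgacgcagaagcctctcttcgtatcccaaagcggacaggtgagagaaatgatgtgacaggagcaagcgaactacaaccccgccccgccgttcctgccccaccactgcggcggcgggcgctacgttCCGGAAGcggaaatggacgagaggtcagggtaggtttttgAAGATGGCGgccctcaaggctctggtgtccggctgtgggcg
MRPL42: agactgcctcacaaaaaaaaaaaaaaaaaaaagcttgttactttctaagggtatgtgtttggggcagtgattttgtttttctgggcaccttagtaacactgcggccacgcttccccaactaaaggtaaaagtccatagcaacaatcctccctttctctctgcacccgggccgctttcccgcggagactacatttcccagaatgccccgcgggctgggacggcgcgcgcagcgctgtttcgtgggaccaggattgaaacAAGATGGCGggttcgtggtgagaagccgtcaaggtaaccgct
The first 3 hold 1, 2 and 3 matches to the ETS core. MRPS18A holds 1 match to each motif, and MRPL42 a single match to the YY1 letters that begins after the start. Genes with the YY1 letters had a median difference of control 2 from controls 1 and 3 of 0.48, against 1.00 in those without, and genes with and without the ETS core had 1.02 and 0.86, as a description of these 69 genes. Without control 2 the median log2 fold change was −0.05 with and 0.07 without the YY1 letters, and 0.04 and 0.06 with and without the ETS core.

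Starts shared with a neighbour were also frequent. In 17 of the 77 tested genes, or 22.1%, another protein-coding gene starts within 1000 bp upstream on the other strand, against 9.21% of the 14336 protein-coding genes tested. MRPL46 and MRPS11 form such a pair with each other, 34 bp apart, and MRPL36 and MRPL47 are paired with NDUFS6 and NDUFB5, subunits of respiratory complex I. Control 2 was high for MRPS11 and not for MRPL46: MRPL46 measured 14.7 CPM there and 13.9 to 19.2 CPM elsewhere, and MRPS11 98.4 CPM against 56.7 to 65.5 CPM.

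Other components of mitochondrial translation were examined as lists. In the 5 mitoribosomal proteins with other names the median log2 fold change was −0.73, with 3 lower, and 0.10 without control 2, with 5 higher. CHCHD1, AURKAIP1 and GADD45GIP1 stood at 169, 278 and 355 CPM in control 2, against 42.9 to 62.1, 81.0 to 100.2 and 89.6 to 128 CPM elsewhere, while DAP3 and PTCD3 stood at 115 and 49.9 CPM in control 2 and at 81.0 to 96.3 and 57.7 to 75.7 CPM elsewhere. Of 27 genes of ribosome assembly and ribosomal RNA modification 20 were lower (median −0.16), and 11 were lower without control 2 (median 0.02), with RCC1L, YBEY and the methyltransferase MRM3 at −0.51, −0.56 and −0.77, and −0.14, −0.15 and 0.08 without it. The 16 translation factors had medians of −0.09 and 0.14, with the membrane insertase OXA1L at 0.31 and 0.27, TACO1, an activator of MT-CO1 translation, at −0.59 and 0.07, and the elongation factor GUF1 at −0.27 and −0.38. Of 21 tested genes of protein import 18 were lower (median −0.34) and 9 without control 2 (median 0.01), with PAM16, TIMM10 and TIMM8B at −1.07, −0.96 and −0.80 and then −0.41, −0.13 and −0.06. The 9 genes of mitochondrial DNA copying and transcription had medians of 0.04 and 0.09, with MTERF1, POLRMT and SSBP1 at −0.25, −0.20 and −0.35 and then 0.00, −0.04 and 0.15. No gene of these lists was called in edgeR or DESeq2 with or without control 2.

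**Figure D5:**
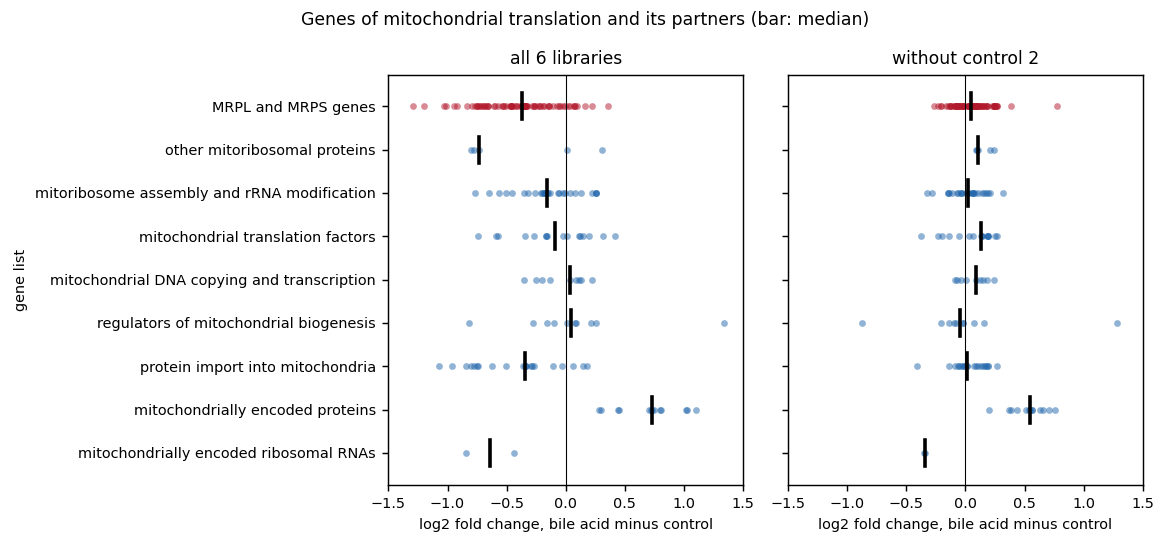
Log2 fold change of bile acid against control (horizontal axis) for each tested gene of 9 lists (rows), with all 6 libraries on the left and without control 2 on the right; black bars are medians. The median of the MRPL and MRPS genes goes from −0.37 to 0.05, while the 13 proteins encoded in mitochondrial DNA stay above 0 in both panels.

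Regulators of mitochondrial biogenesis and the genes of mitochondrial DNA were examined in the same way. Of 10 regulators of mitochondrial biogenesis 4 were lower (median 0.04), and 7 were lower without control 2 (median −0.05). MYC, a growth regulator, measured 42.5, 30.8 and 28.7 CPM in controls and 107, 58.9 and 92.1 CPM in bile acid libraries, with no overlap. It rose in DESeq2 (adjusted p = 0.0251, and 0.000316 without control 2) but did not pass in edgeR, where its log2 fold change was 1.34 (SE 0.28, adjusted p = 0.911, and 0.170 without control 2). The coactivator PPARGC1A measured 1.73, 1.57 and 1.88 CPM against 1.07, 0.804 and 1.04 CPM, a log2 fold change of −0.82 (SE 0.38) that did not pass in either. NRF1 measured 49.7, 60.6 and 57.6 CPM against 39.8, 51.5 and 46.9 CPM, and these ranges overlapped. The 13 proteins encoded in mitochondrial DNA all had a higher fitted value in the bile acid group, as did 48.8% of all genes tested, with a median of 0.73 and of 0.54 without control 2, and 0 were called. By library this came from 2 of the 3: relative to each gene's mean over the 6 libraries their median was 1.06 and 0.70 in bile acid libraries 1 and 3, −0.66 in bile acid library 2, where 0 of the 13 lay above that mean, and 0.04, −0.83 and −0.04 in controls 1 to 3. MT-CO1, a subunit of cytochrome oxidase, stood at 666, 588 and 748 CPM in controls and at 1362, 567 and 1384 CPM in bile acid libraries, so that bile acid library 2 lay below every control. The ATP synthase subunit MT-ATP6 and the complex I subunit MT-ND4 had log2 fold changes of 0.79 and 1.02, and 0.54 and 0.63 without control 2. The 2 ribosomal RNAs had lower values: MT-RNR1, that of the small subunit, measured 118, 224 and 86.9 CPM against 90.2, 63.1 and 86.2 CPM, and MT-RNR2, that of the large subunit, 779, 806 and 582 CPM against 704, 295 and 602 CPM. Their log2 fold changes of −0.84 (SE 0.36) and −0.44 (SE 0.34) were −0.35 and −0.34 without control 2, neither passed in edgeR or DESeq2, and the groups overlapped in both.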

How the data were processed

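Paired-end RNA sequencing of 3 control and 3 bile acid libraries was analysed from the deposited read counts per gene, which were not normalized. The submitters' processing notes name HISAT2 2.0.5, featureCounts, DESeq2 and GRCh38. The authors also deposited FPKM values, a signal of normalized counts divided by 1 size factor per library, a table of log2 fold changes with test scores and p-values, and gene set scores with p-values, per the file headers. The genes and lists were chosen with earlier results of these data known.

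Genes with low counts were removed with filterByExpr, and groups were compared by edgeR 4.0.16 in R 4.3.3 (quasi-likelihood test, TMM scaling, Benjamini-Hochberg adjustment over all genes tested, threshold 0.05), with all 6 libraries and without control 2. CPM values use the TMM-scaled totals, and per-library differences use log2 CPM with a prior count of 2. Alternatives were DESeq2 1.42.0, limma 3.58.1 (voom, and log2 FPKM with pseudocounts of 1 and 0.1), other scalings and filters, a replicate block, removal of each library's trend with length, reads recovered from the normalized counts (100% whole within 0.001) and each library left out. The scripts were tested on simulated data. Exon overlap came from GENCODE release 29 with bedtools 2.31.1. Genes named were the 5 highest and 5 lowest log2 fold changes of either comparison, any gene called or filtered out, 14 with known roles, and up to 3 per list with the smallest p. MRPL18, MRPL19, MRPL37, MRPL38, MRPL40, MRPL3, MRPL46, MRPL47, MRPL49, MRPL57, MRPS10, MRPS11, MRPS34 and the read-through and overlapping neighbours were named after their values were seen. A table of group means and 2 further value columns were not used.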

Additional observations from a re-analysis of the deposited data

How the results depend on the processing

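Under all alternatives run, 0 of the genes were called in either comparison. The median log2 fold change with all libraries lay between −0.40 and −0.16, the latter with the length trend removed together with a replicate block, and leaving out 1 library moved it from −0.55 (without control 1) to 0.049 (without control 2). Without control 2 it lay between −0.04 (with library size alone and with the replicate block) and 0.05, and between −0.03 and 0.11 with a further library left out, so its sign was not stable; where a single control remained, it was assumed to vary like the bile acid libraries. The replicate block gave −0.31 with all libraries, with 0 genes called and 4 at an unadjusted p under 0.05. Same-numbered libraries had correlations of 0.31, 0.38 and 0.098 in their deviations from the group means, and the library of the same number was the best match for numbers 1 and 2 but not 3, so the block rests on numbers alone. Of the 28 genes named by the rule, 13 took the other sign without control 2. Over the libraries left out in turn, the log2 fold change ran from −0.087 to 0.086 for MRPL10, from −1.06 to 0.018 for MRPL11, from −1.28 to 0.099 for MRPL12, from −1.03 to 0.39 for MRPL14, from −1.01 to 0.26 for MRPL20, from −0.17 to 0.13 for MRPL44, from −1.35 to 0.067 for MRPL55 and from −0.58 to 0.031 for MRPL58. In the small subunit it ran from −1.37 to 0.093 for MRPS6, from −0.62 to 0.26 for MRPS12, from −0.86 to 0.11 for MRPS16, from −0.71 to 0.055 for MRPS18B, from −0.13 to 0.041 for MRPS22 and from −0.0061 to 0.27 for MRPS27. The highest value was that without control 2 in all of these but MRPL10, where it was that without bile acid library 1. With the length trend removed MRPL10 had 0.083, MRPL44 0.14 and MRPS27 −0.034. The cause of these changes was not tested. MRPS24, MRPL53 and MRPL38 had the fewest counts, 33, 364 and 473 over all libraries, which limits their values.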
